A study of Mus musculus with 8 samples.

Results

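The translocon and vesicle coat genes are the machinery that puts secretory proteins into the endoplasmic reticulum (ER) and carries them to the Golgi and back. They were taken as every gene on the array whose single symbol in the platform annotation starts with Sec or Srp and a digit, Ssr1 to Ssr4, Spcs, Tmed, Kdelr, Copa, Copb, Cope, Copg or Copz, or is Srpr, Sar1a, Sar1b or Arf1 to Arf6. These names gave 54 genes of the 8251 genes measured, each read from its brightest probe set by the mean of all arrays. By role they were 5 translocon genes, 6 genes of the signal recognition particle and its receptor, 4 translocon-associated proteins, 4 signal peptidase subunits, 10 COPII genes, 5 p24 cargo receptors, 3 KDEL receptors, 7 COPI subunits and 6 Arf GTPases. A further 4 matched by their letters: Sec22b, a SNARE of ER to Golgi vesicles, the lipid-binding proteins Sec14l1 and Sec14l2, and Sec1, a fucosyltransferase gene with no part in transport. Another 5 probe sets whose symbols also match were left out because the annotation gave each several genes.

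RNA of whole pancreas was measured on 8 Affymetrix arrays, 2 in each of 4 groups of mice aged 3 weeks. NOD is an inbred strain that becomes diabetic by autoimmunity, and NOD.scid is the same strain with the scid mutation, which stops lymphocytes from rearranging their antigen receptors. BDC2.5/NOD mice carry a transgenic T cell receptor from a CD4 clone that causes diabetes, and BDC2.5/NOD.scid mice carry that receptor on the scid background. All 4 groups share the NOD background, which carries diabetes risk genes. The labels state that RNA was isolated 2 times, from 6 animals each time, and pooled. No source used here gives the promoter of the transgene or the sex of the mice. No label says whether a group's arrays came from separate pools, so the p-values cover just the spread between arrays and that spread may be technical.

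As background, the signal recognition particle binds the signal sequence of a nascent protein and docks the ribosome at its receptor, and the chain then enters the ER lumen through the Sec61 channel, beside which the Ssr proteins sit. Signal peptidase removes the signal sequence, COPII-coated vesicles carry cargo to the Golgi, and COPI-coated vesicles, built by Arf GTPases, return escaped ER proteins held by KDEL receptors. Acinar cells, which make most of the RNA of the exocrine pancreas, secrete digestive enzymes by this route.

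All values below are the deposited log2 values of the arrays, or differences of group means on that scale, each group having n = 2. A gene is said to have risen or fallen where limma's moderated test gave an adjusted p under 0.05 over all 12422 probe sets. The whole-array facts that touch these results are few. All 6 acinar enzyme genes measured were bright in every group, Rnase1 being the dimmest at a group mean of 10.80 to 10.94, and 0 of the 6 passed in any of the 5 comparisons. At an unadjusted p under 0.05, limma gave 1 of the 6, lower in BDC2.5/NOD.scid against BDC2.5/NOD, and 0 in the other comparisons. Their summed level spanned 15.51 to 15.60 over all arrays, which shows the labelled tissue. Ctrb1, the brightest of them, had group means of 13.70 to 13.77 where the highest value on any array was 13.78, so this sum is no measure of how the acinar share varied. The actin control was high, at 9.26 to 9.55, on replicate 2 of BDC2.5/NOD.scid and on the first replicates of NOD.scid and NOD. It was 6.95 to 7.74 elsewhere, including both BDC2.5/NOD arrays.

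The translocon and coat genes stood highest in BDC2.5/NOD and lowest in BDC2.5/NOD.scid. BDC2.5/NOD had the highest of the 4 group means for 33 of the 54 genes (61.1%, against 32.8% of all 8251 genes) and the lowest for 1. BDC2.5/NOD.scid had the lowest mean for 29 of them (53.7%, against 25.9% of all genes) and the highest for 2. Counted array by array, 47 and 46 of the 54 genes lay above their own mean on the BDC2.5/NOD arrays, 30 and 35 on the NOD arrays, 23 and 21 on the NOD.scid arrays, and 10 and 9 on the BDC2.5/NOD.scid arrays. The groups with the transgene therefore lay at the ends of the order and those without it in the middle. Of the 54 genes, 49 were brighter than the median probe set.

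**Figure D1:**
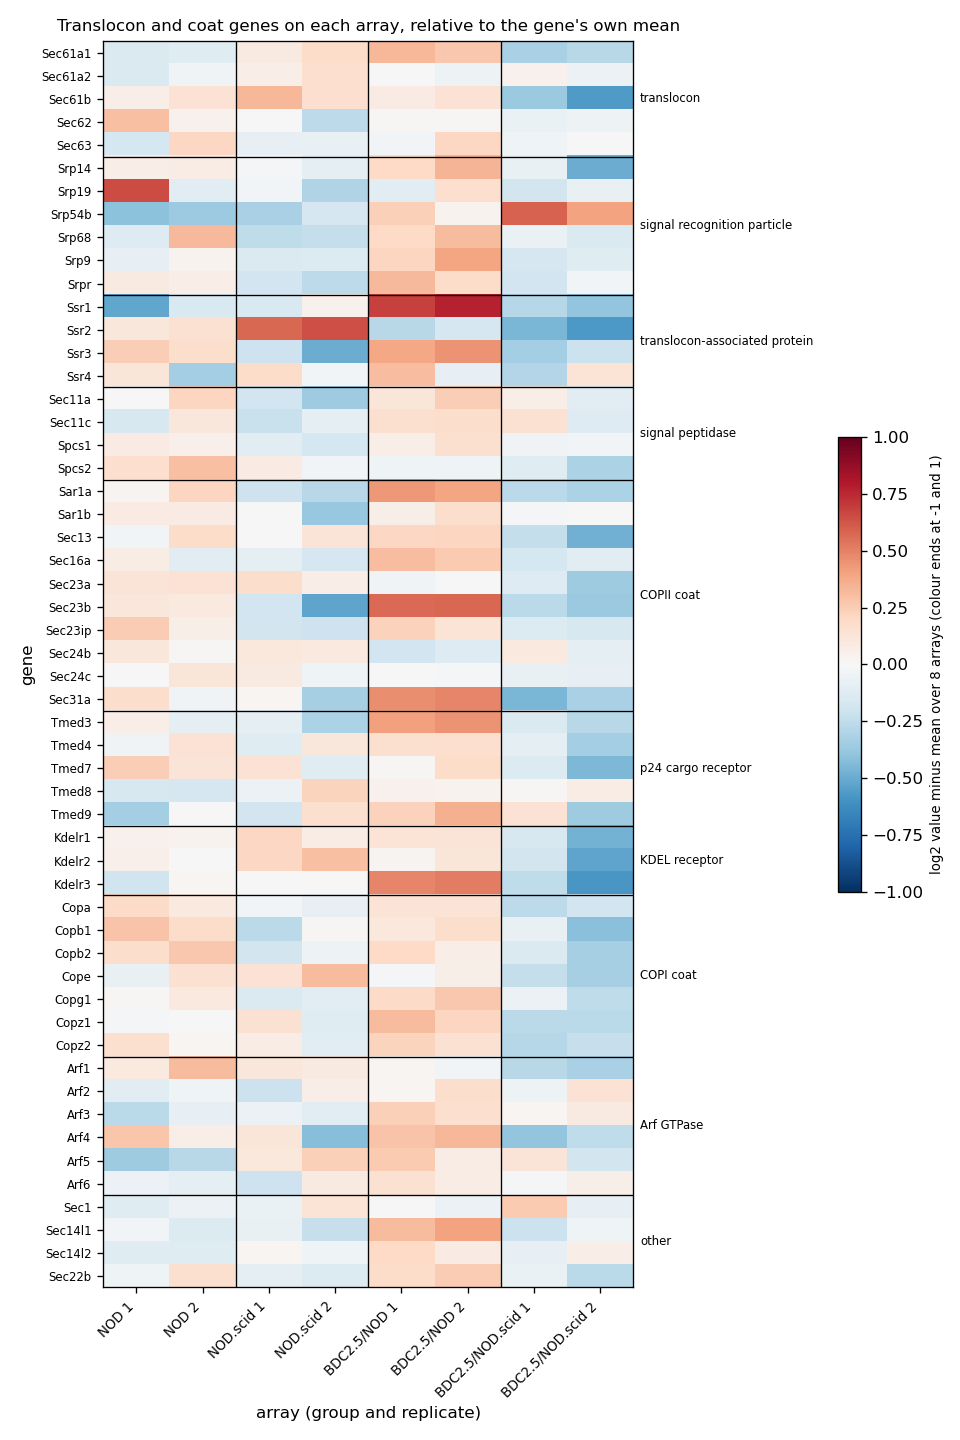
Log2 value of each of the 54 genes (rows, by role) on each of the 8 arrays (columns, by group and replicate) minus the gene's mean over the 8 arrays, with the colour scale ending at -1 and 1. Red marks arrays above the gene's mean and blue those below; 47 and 46 genes lie above their mean on the BDC2.5/NOD arrays and 10 and 9 on the BDC2.5/NOD.scid arrays.

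Setting BDC2.5/NOD.scid against BDC2.5/NOD asks what the scid mutation changes where the transgenic receptor is present. Of the 54 genes, 24 fell and 0 rose, against 5.35% of all probe sets that fell and 2.99% that rose. The 24 made up 44.4% of the genes, and 49 of the 54 had a negative difference. At an unadjusted p under 0.05 limma gave 34 lower and 1 higher, against 1612 lower and 977 higher of all 12422 probe sets. The median difference was -0.36, against -0.02 over all 8251 genes. Among genes brighter than the median probe set the share that fell was 49.0% of 49, against 9.25% of 4791. The number of calls was 10 without BDC2.5/NOD replicate 1 and 9 without replicate 2, all of them lower, while calls over all probe sets, in either direction, went from 1037 to 370 and 329. The median difference of the 54 genes was -0.35 in both of these refits. It was -0.37 without BDC2.5/NOD.scid replicate 1 and -0.27 without its replicate 2, the array of high actin control in that group. After quantile normalization it was -0.29, and with the mean of a gene's probe sets it was -0.305. Leaving out an array makes its group a single array, which is then assumed to vary like the other groups. Under that assumption Ssr1, Sec61a1, Sec23b, Sec31a, Sar1a, Ssr3, Kdelr3 and Tmed3 were the 8 that passed whichever single array was left out.

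The transgene was compared within each background, to ask how the pancreas differs between mice with and without it. In NOD mice 9 of the 54 genes rose and 1 fell, against 3.91% and 4.06% of all probe sets, with a median difference of 0.15, against 0.04 over all genes. In NOD.scid mice 1 rose and 8 fell, against 2.37% and 4.03% of all probe sets, with a median of -0.10, against -0.01. In NOD fewer of the 54 genes passed without either BDC2.5/NOD array or either NOD array, and fewer of all probe sets did too. The median difference was then 0.15 and 0.12 without BDC2.5/NOD replicates 1 and 2, and 0.13 and 0.18 without NOD replicates 1 and 2. Ssr1 rose by 0.88 to 1.24 over the 8 arrays left out in turn. The median difference in NOD.scid was -0.119 and -0.035 without BDC2.5/NOD.scid replicates 1 and 2, replicate 2 being the array of high actin control in that group. Without NOD.scid replicates 1 and 2 it was -0.056 and -0.091. The count in NOD.scid was 4 without BDC2.5/NOD.scid replicate 2, and Ssr2, Sec61b, Sec61a1 and Srp54b passed whichever array was left out. The scid mutation without the transgene, NOD.scid against NOD, gave 2 genes higher (Arf5 and Ssr2) and 2 lower (Sec23b and Ssr3), against 0.741% and 1.61% of all probe sets (2.35% in either direction), and each of these calls was lost without NOD replicate 1, NOD replicate 2 or NOD.scid replicate 2. Fewer of the 54 genes passed there without those arrays or without either BDC2.5/NOD array, and fewer of all probe sets did too. After quantile normalization 1 was higher and 2 were lower. These comparisons share groups: the BDC2.5/NOD arrays enter both the transgene in NOD and scid with the transgene.

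Whether the transgene difference itself depends on the background was tested by the interaction, the transgene difference in NOD.scid minus that in NOD. It was negative past the threshold for 8 of the 54 genes and positive for 0, against 2.5% and 2.22% of all probe sets (4.72% in either direction). At an unadjusted p under 0.05 limma gave 21 negative and 0 positive, against 1270 and 813 of all 12422 probe sets. The 8 were Ssr1, Kdelr3, Sec61a1, Ssr2, Sec61b, Arf5, Kdelr2 and Copz1, with values from -1.34 to -0.56. Ssr1, Sec61a1, Ssr2 and Kdelr3 passed whichever array was left out. Fewer genes passed without either BDC2.5/NOD array, BDC2.5/NOD.scid replicate 2 or either NOD array, and fewer of all probe sets did too. The median interaction of the 54 genes was -0.24 to -0.20 in these refits.

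**Figure D2:**
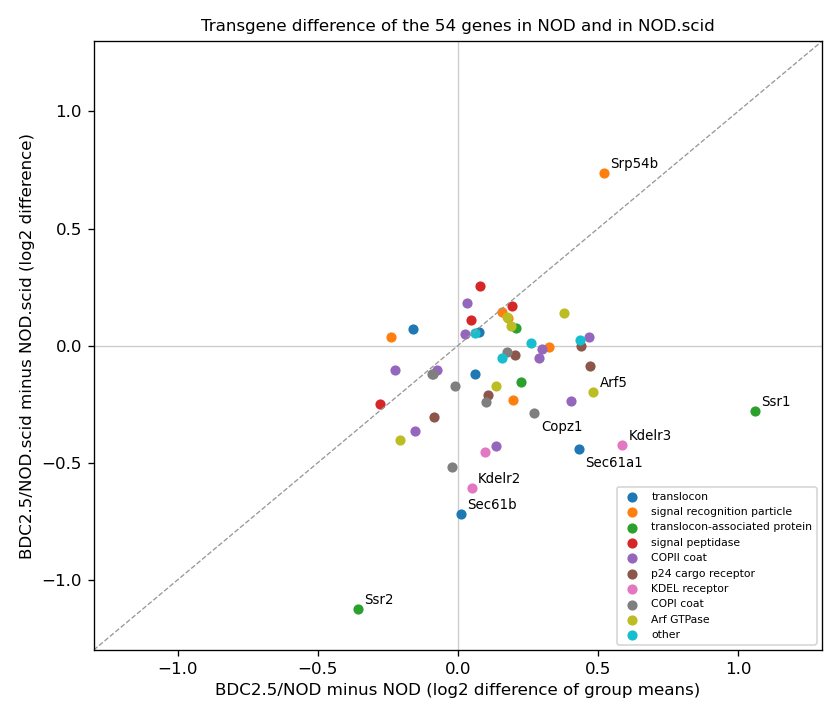
Difference of group means with the transgene in NOD (x axis, log2) and in NOD.scid (y axis, log2) for the 54 genes, 1 point a gene, coloured by role; the dashed line marks equal differences. The 8 genes past the threshold in the interaction are named and lie below the line, and Srp54b is named above it; Ssr1 stands farthest right at 1.06 and Ssr2 lowest at -1.12.

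The start regions of these genes were read because many of the genes moved together. RefSeq windows from 250 bases before to 50 bases after the transcript start (GRCm38.p6) were matched by symbol for 46 of the 54 genes, which had 52 windows. The sequences printed are the 150 bases upstream of the start of the 6 genes with the largest falls between BDC2.5/NOD.scid and BDC2.5/NOD whose window starts at the gene's own RefSeq start. They lie, each with its gene immediately downstream, as Ssr1 on the minus strand at chr13:37994209-37994358, Kdelr3 on the plus strand at chr15:79516258-79516407, Sec23b on the plus strand at chr2:144556079-144556228, Sar1a on the plus strand at chr10:61680135-61680284, Ssr3 on the minus strand at chr3:65392554-65392703 and Tmed3 on the minus strand at chr9:89705044-89705193. Each is written 5′ to 3′ on the gene's strand, and capitals mark ACGTG on either strand (CACGT where it lies on the other), the core shared by E-box-like and unfolded protein response elements.
Ssr1: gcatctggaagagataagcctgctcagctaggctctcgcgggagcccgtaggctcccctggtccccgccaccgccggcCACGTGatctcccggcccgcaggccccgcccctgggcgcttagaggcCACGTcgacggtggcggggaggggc
Kdelr3: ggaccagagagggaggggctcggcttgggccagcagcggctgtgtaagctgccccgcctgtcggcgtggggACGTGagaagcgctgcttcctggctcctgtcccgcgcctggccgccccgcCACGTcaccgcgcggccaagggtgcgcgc
Sec23b: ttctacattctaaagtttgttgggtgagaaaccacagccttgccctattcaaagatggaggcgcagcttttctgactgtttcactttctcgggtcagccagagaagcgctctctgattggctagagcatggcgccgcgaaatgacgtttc
Sar1a: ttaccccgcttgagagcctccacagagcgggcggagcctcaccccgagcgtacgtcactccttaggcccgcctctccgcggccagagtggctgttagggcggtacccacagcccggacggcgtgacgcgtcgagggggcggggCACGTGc
Ssr3: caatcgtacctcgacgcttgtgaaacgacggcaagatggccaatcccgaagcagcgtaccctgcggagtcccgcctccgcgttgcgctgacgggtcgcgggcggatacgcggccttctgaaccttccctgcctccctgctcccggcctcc
Tmed3: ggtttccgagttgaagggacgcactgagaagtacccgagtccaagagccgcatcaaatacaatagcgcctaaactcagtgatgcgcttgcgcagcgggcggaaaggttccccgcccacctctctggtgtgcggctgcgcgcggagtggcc

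Ssr1 and Kdelr3 hold 2 such stretches each and Sar1a holds 1, while Sec23b, Ssr3 and Tmed3 hold none in these 150 bases. Over the whole windows, ACGTG on either strand lay in 31 of the 52 windows of these genes (59.6%), against 24.03% of 8412 windows of all genes on the array and 19.6% of 32851 RefSeq windows. It lay in 16 of the 25 windows (64.0%) of the genes that fell in BDC2.5/NOD.scid against BDC2.5/NOD. This core was searched after the values were seen. The longer TGACGTGG, the unfolded protein response element bound by Xbp1 and Atf6, which contains that core, was found in 6 of the 52 windows (11.5%), against 0.939% of the windows of genes on the array and 0.676% of all windows. Those windows belonged to Arf1, Copb1, Copb2, Kdelr3 and Sec23a, of which Copb2 and Kdelr3 fell in BDC2.5/NOD.scid against BDC2.5/NOD. Arf1 gave 2 of these windows, which overlap and hold the same site. The element lay in 2 of the 25 windows (8%) of the genes that fell in that comparison, against the 11.5% of all 52 windows. The ER stress element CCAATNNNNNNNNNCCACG was in 0 of the 52 windows and in 0.119% of all windows, and its second form, ATTGG and CCACG with 1 base between, in 0 of the 52 and in 0.0365% of all. CCAAT alone was in 36.5% of these windows, 37.0% of those of genes on the array and 37.4% of all. CCACG alone was in 63.5%, 43.6% and 32.8%. Both overlap the longer elements. The median GC content was 61.3% in these windows, 59.7% in those of genes on the array and 52.7% in all. A match describes the letters of the window only.

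Of the translocon genes, Sec61a1 and Sec61b changed and Sec61a2, Sec62 and Sec63 passed in no comparison. Sec61a1, which encodes the pore-forming subunit of the channel, read 8.31 and 8.25 in BDC2.5/NOD, 7.83 and 7.86 in NOD, 8.07 and 8.16 in NOD.scid, and 7.66 and 7.70 in BDC2.5/NOD.scid. No groups overlapped, and the order from the top was BDC2.5/NOD, NOD.scid, NOD and BDC2.5/NOD.scid. It rose by 0.43 with the transgene in NOD (SE 0.0818, limma adjusted p = 0.00637) and fell by 0.44 with it in NOD.scid (SE 0.0818, limma adjusted p = 0.00569), the only one of the 54 genes past the threshold in opposite directions. It fell by 0.60 in BDC2.5/NOD.scid against BDC2.5/NOD (SE 0.0818, limma adjusted p = 0.000628), and the interaction was -0.87 (SE 0.116, limma adjusted p = 0.000915). The rise in NOD was lost without either BDC2.5/NOD array or NOD replicate 1, the limma adjusted p reaching at most 0.103. A second Sec61a1 probe set gave 0.47, -0.55 and -0.74 for the same 3 comparisons, the first of these with a limma adjusted p = 0.077. Sec61b, a small subunit of the channel, read 7.91 and 7.97 in BDC2.5/NOD, 7.89 and 7.97 in NOD, 8.16 and 8.0 in NOD.scid, and 7.45 and 7.26 in BDC2.5/NOD.scid. The BDC2.5/NOD.scid arrays lay below all others, while NOD and BDC2.5/NOD overlapped. It fell by 0.72 with the transgene in NOD.scid (SE 0.0958, limma adjusted p = 0.000575) and by 0.59 in BDC2.5/NOD.scid against BDC2.5/NOD (SE 0.0958, limma adjusted p = 0.00249), with a difference of 0.01 in NOD; without BDC2.5/NOD replicate 2 the second had a limma adjusted p = 0.0511. The interaction for Sec61b was -0.73 (SE 0.136, limma adjusted p = 0.00904) and reached 0.0681 without BDC2.5/NOD replicate 1 or 2. Sec62, which helps import of short proteins, passed in no comparison by its brightest probe set, but 1 dimmer probe set fell by 0.61 with the transgene in NOD (limma adjusted p = 0.00406) and another by 0.50 in NOD.scid against NOD (limma adjusted p = 0.0389).

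By brightest probe sets, Ssr1 and Ssr2 of the translocon-associated proteins had the largest pairwise differences of the 54 genes. Ssr1, Ssr2 and Ssr3 each had their own order of group means. Ssr1, the alpha subunit, read 6.18 and 6.26 in BDC2.5/NOD, 4.97 and 5.34 in NOD, 5.34 and 5.53 in NOD.scid, and 5.21 and 5.10 in BDC2.5/NOD.scid. Both BDC2.5/NOD arrays lay above all 6 others, among which NOD overlapped both scid groups. Ssr1 rose 2.08-fold with the transgene in NOD, a log2 difference of 1.06 (SE 0.125, limma adjusted p = 0.000297), and fell by 1.06 in BDC2.5/NOD.scid against BDC2.5/NOD (SE 0.125, limma adjusted p = 0.000223). With the transgene in NOD.scid the difference was -0.28 and did not pass (limma adjusted p = 0.27), and the interaction of -1.34 was the largest of the 54 genes (SE 0.176, limma adjusted p = 0.000861). A dimmer Ssr1 probe set rose by 0.43 in NOD and fell by 0.50 in BDC2.5/NOD.scid against BDC2.5/NOD. Its interaction was -0.61 and did not pass (limma adjusted p = 0.0682). Ssr2, the beta subunit, read 6.96 and 7.07 in BDC2.5/NOD, 7.35 and 7.39 in NOD, 7.81 and 7.89 in NOD.scid, and 6.78 and 6.67 in BDC2.5/NOD.scid. No groups overlapped, NOD.scid standing highest and the groups with the transgene lowest. Ssr2 fell 2.18-fold with the transgene in NOD.scid, a log2 difference of -1.12 (SE 0.088, limma adjusted p = 4.94e-06), and by 0.36 in NOD (SE 0.088, limma adjusted p = 0.0279). It was the only 1 of the 54 genes that fell in both; the call in NOD was lost without any 1 of the 4 arrays compared, with a limma adjusted p of up to 0.255. In NOD.scid against NOD it rose by 0.48 (SE 0.088, limma adjusted p = 0.0142). Ssr3, the gamma subunit, read 9.36 and 9.41 in BDC2.5/NOD, 9.21 and 9.14 in NOD, 8.76 and 8.47 in NOD.scid, and 8.63 and 8.76 in BDC2.5/NOD.scid. Both scid groups lay below both others and overlapped each other. Ssr3 fell by 0.56 in NOD.scid against NOD (SE 0.101, limma adjusted p = 0.0123) and by 0.69 in BDC2.5/NOD.scid against BDC2.5/NOD (SE 0.101, limma adjusted p = 0.00102). The gene's probe sets disagreed in size. In NOD.scid against NOD the dimmer ones gave -0.152 and -0.615 (limma adjusted p = 0.534 and 0.0092). In that second comparison the dimmer ones fell by 0.99 and 1.53, the latter past the 1.06 of Ssr1, and the mean of all 3 was -1.07 (limma adjusted p = 4.55e-05), against -0.78 for the mean of the Ssr1 probe sets. For the transgene in NOD the brightest gave 0.21 (limma adjusted p = 0.237) and the others rose by 0.88 and 1.27 (limma adjusted p = 0.000206 and 1.72e-05). The interaction was -0.13 by the brightest (limma adjusted p = 0.725) and -0.84 and -0.92 by the others (limma adjusted p = 0.00457 and 0.00406). Ssr4, the delta subunit, passed in no comparison, with differences from -0.19 to 0.22 over the pairwise comparisons.

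Of the 6 genes of the signal recognition particle and its receptor, 3 fell in BDC2.5/NOD.scid against BDC2.5/NOD and 1 rose with the transgene in both backgrounds. Srp9, a subunit that arrests translation, read 6.05 and 6.24 in BDC2.5/NOD, 5.76 and 5.88 in NOD, 5.70 and 5.70 in NOD.scid, and 5.68 and 5.72 in BDC2.5/NOD.scid, and the BDC2.5/NOD arrays lay above the rest. It fell by 0.45 in BDC2.5/NOD.scid against BDC2.5/NOD (SE 0.0961, limma adjusted p = 0.0125). Srp14, its partner, read 6.88 and 7.01 in BDC2.5/NOD, 6.74 and 6.75 in NOD, 6.66 and 6.57 in NOD.scid, and 6.60 and 6.18 in BDC2.5/NOD.scid. The BDC2.5/NOD.scid arrays were the most widely spread pair for this gene and overlapped NOD.scid, and the fall was 0.56 (SE 0.122, limma adjusted p = 0.0146), or 0.35 without BDC2.5/NOD.scid replicate 2. Srpr, the receptor's alpha subunit, read 8.58 and 8.44 in BDC2.5/NOD, 8.35 and 8.32 in NOD, 8.07 and 7.99 in NOD.scid, and 8.07 and 8.23 in BDC2.5/NOD.scid, with BDC2.5/NOD highest and the scid groups overlapping slightly; it fell by 0.36 (SE 0.0904, limma adjusted p = 0.0271). Each of these falls was lost without BDC2.5/NOD replicate 2 (limma adjusted p of up to 0.179 for Srp9, 0.169 for Srp14 and 0.264 for Srpr over the arrays left out in turn), those of Srp14 and Srpr also without replicate 1, those of Srp9 and Srpr without BDC2.5/NOD.scid replicate 1, and that of Srp14 without BDC2.5/NOD.scid replicate 2. A second Srpr probe set fell by 0.40 and also rose by 0.51 with the transgene in NOD (limma adjusted p = 0.00695). A dim second Srp14 probe set rose by 0.49 with the transgene in NOD (limma adjusted p = 0.0338). Its difference in BDC2.5/NOD.scid against BDC2.5/NOD was -0.425 and did not pass (limma adjusted p = 0.0586). Srp54b, annotated as a copy of the subunit that reads the signal sequence, read 5.96 and 5.76 in BDC2.5/NOD, 5.31 and 5.36 in NOD, 5.40 and 5.55 in NOD.scid, and 6.31 and 6.12 in BDC2.5/NOD.scid. The groups with the transgene lay above both without it, and BDC2.5/NOD.scid was highest. It rose by 0.74 in NOD.scid (SE 0.107, limma adjusted p = 0.00108) and by 0.52 in NOD (SE 0.107, limma adjusted p = 0.011), the latter lost without BDC2.5/NOD replicate 1 or NOD replicate 1. The mouse has near-identical Srp54 copies that the probe set may not tell apart, so this assignment is uncertain. Srp19 and Srp68 passed in no comparison.

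None of the 4 signal peptidase genes (Sec11a, Sec11c, Spcs1 and Spcs2) passed in any comparison. At an unadjusted p under 0.05, limma gave 2 of them lower in NOD.scid than NOD, 1 lower with the transgene in NOD, 1 higher and 1 lower with the transgene in NOD.scid, and 0 in the other comparisons. The smallest p belonged to Sec11a, a catalytic subunit, which read 6.28 and 6.40 in BDC2.5/NOD, 6.16 and 6.37 in NOD, 5.96 and 5.80 in NOD.scid, and 6.22 and 6.05 in BDC2.5/NOD.scid. Both NOD.scid arrays lay below the other 6. Its difference in NOD.scid against NOD was -0.38 (SE 0.109, limma adjusted p = 0.112).

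**Figure D3:**
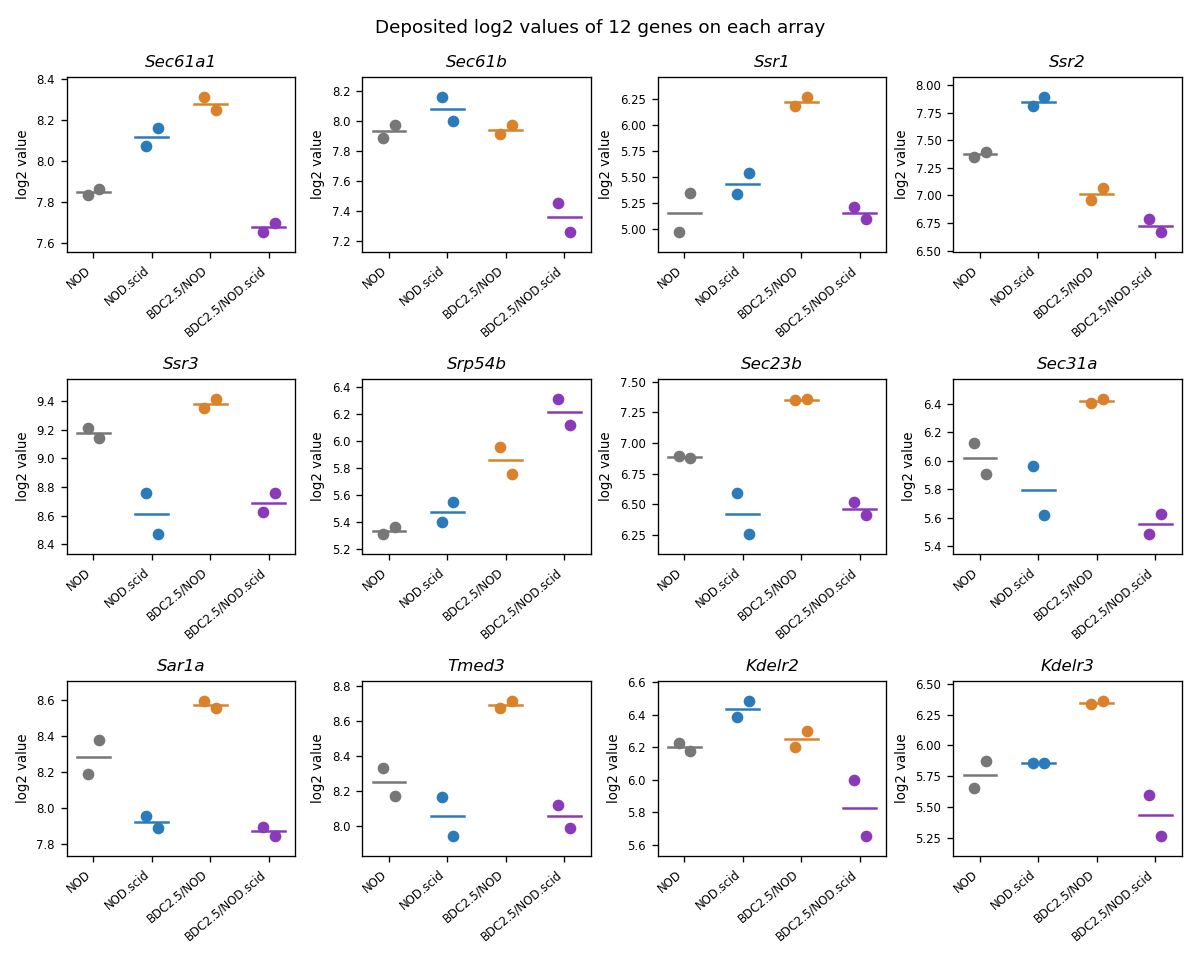
Deposited log2 value (y axis, separate scale for each gene) of 12 genes on the 2 arrays of each group (points), with the group mean as a line. Ssr1, Sec23b, Sec31a, Sar1a, Tmed3 and Kdelr3 are highest on both BDC2.5/NOD arrays, Sec61b and Kdelr2 are lowest on both BDC2.5/NOD.scid arrays, and Ssr2 is lower in both groups with the transgene.

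Of the 10 COPII genes, 5 fell in BDC2.5/NOD.scid against BDC2.5/NOD: Sec23b, Sec31a, Sar1a, Sec13 and Sec16a. Sec23b, of the inner coat, read 7.35 and 7.36 in BDC2.5/NOD, 6.89 and 6.88 in NOD, 6.59 and 6.26 in NOD.scid, and 6.51 and 6.41 in BDC2.5/NOD.scid. BDC2.5/NOD stood highest, NOD lay below it, and the scid groups overlapped at the bottom. It fell 1.86-fold, a log2 difference of -0.89 (SE 0.108, limma adjusted p = 0.000291). It also rose by 0.47 with the transgene in NOD (SE 0.108, limma adjusted p = 0.0195) and fell by 0.46 in NOD.scid against NOD (SE 0.108, limma adjusted p = 0.048). The rise in NOD was lost without any 1 of the 4 arrays compared (limma adjusted p of up to 0.144), and the fall in NOD.scid without 5 of the 8 arrays (up to 0.334): both NOD arrays, both BDC2.5/NOD arrays and NOD.scid replicate 2. A dimmer Sec23b probe set gave 0.27 in the comparison of the transgenic groups and did not pass; with the mean of both probe sets the difference was -0.31 (limma adjusted p = 0.0643). Sec31a, of the outer coat, read 6.41 and 6.43 in BDC2.5/NOD, 6.12 and 5.91 in NOD, 5.96 and 5.62 in NOD.scid, and 5.48 and 5.62 in BDC2.5/NOD.scid. The BDC2.5/NOD arrays were highest, and BDC2.5/NOD.scid was lowest but overlapped NOD.scid. Sec31a fell by 0.87 (SE 0.122, limma adjusted p = 0.000822). Sar1a, the GTPase that starts the coat, read 8.59 and 8.55 in BDC2.5/NOD, 8.19 and 8.38 in NOD, 7.96 and 7.89 in NOD.scid, and 7.89 and 7.84 in BDC2.5/NOD.scid, NOD and BDC2.5/NOD both lying above the scid groups; it fell by 0.70 (SE 0.0883, limma adjusted p = 0.000362). Sec13, the partner of Sec31a, read 7.50 and 7.50 in BDC2.5/NOD, 7.26 and 7.47 in NOD, 7.29 and 7.42 in NOD.scid, and 7.05 and 6.80 in BDC2.5/NOD.scid. Both BDC2.5/NOD.scid arrays lay below all others, and NOD and NOD.scid overlapped. Sec13 fell by 0.57 in that comparison (SE 0.107, limma adjusted p = 0.00558) and by 0.43 with the transgene in NOD.scid (SE 0.107, limma adjusted p = 0.0326). The first was lost without either BDC2.5/NOD array (up to 0.0708) and the second without 5 of the 8 arrays (up to 0.232), namely both BDC2.5/NOD, both NOD.scid and BDC2.5/NOD.scid replicate 2. Sec16a, the scaffold of ER exit sites, fell by 0.43 (SE 0.0898, limma adjusted p = 0.0105), a call lost without either BDC2.5/NOD array or BDC2.5/NOD.scid replicate 1. Sar1b, Sec23a, Sec23ip, Sec24b and Sec24c passed in no comparison.

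Of the 5 p24 proteins, which take part in cargo selection at the ER and Golgi, Tmed3 alone passed. Tmed3 read 8.68 and 8.71 in BDC2.5/NOD, 8.33 and 8.17 in NOD, 8.17 and 7.95 in NOD.scid, and 8.12 and 7.99 in BDC2.5/NOD.scid. BDC2.5/NOD lay above the rest, NOD came next, and the scid groups overlapped. It fell by 0.64 in BDC2.5/NOD.scid against BDC2.5/NOD (SE 0.0996, limma adjusted p = 0.00173) and rose by 0.44 with the transgene in NOD (SE 0.0996, limma adjusted p = 0.0179); the rise was lost without either BDC2.5/NOD array or NOD replicate 2 (limma adjusted p of up to 0.147). In the former comparison Tmed4, Tmed7 and Tmed9 had differences of -0.38, -0.40 and -0.40 and Tmed8 of 0.00; limma adjusted p was 0.065, 0.0775, 0.191 and 0.992. Whether Tmed3 differs from them was not tested.

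All 3 KDEL receptors, which retrieve ER chaperones from the Golgi, fell in BDC2.5/NOD.scid against BDC2.5/NOD. Kdelr3 read 6.34 and 6.36 in BDC2.5/NOD, 5.65 and 5.87 in NOD, 5.86 and 5.86 in NOD.scid, and 5.60 and 5.26 in BDC2.5/NOD.scid. Both BDC2.5/NOD arrays were highest and both BDC2.5/NOD.scid arrays lowest, with NOD and NOD.scid overlapping between them. It fell 1.89-fold, a log2 difference of -0.92 (SE 0.118, limma adjusted p = 0.000426), and rose by 0.59 with the transgene in NOD (SE 0.118, limma adjusted p = 0.00933), the latter lost without either BDC2.5/NOD array or NOD replicate 1 (up to 0.095). With the transgene in NOD.scid the difference was -0.42 (limma adjusted p = 0.0538). Kdelr1 read 8.62 and 8.61 in BDC2.5/NOD, 8.53 and 8.51 in NOD, 8.69 and 8.56 in NOD.scid, and 8.32 and 8.01 in BDC2.5/NOD.scid. The BDC2.5/NOD.scid arrays lay below all others, of which NOD.scid and BDC2.5/NOD overlapped. Kdelr1 fell by 0.46 with the transgene in NOD.scid (SE 0.104, limma adjusted p = 0.0196) and by 0.45 against BDC2.5/NOD (SE 0.104, limma adjusted p = 0.0183); the first was 0.30 without BDC2.5/NOD.scid replicate 2. Kdelr2 read 6.20 and 6.30 in BDC2.5/NOD, 6.23 and 6.18 in NOD, 6.39 and 6.48 in NOD.scid, and 6.0 and 5.66 in BDC2.5/NOD.scid, with BDC2.5/NOD.scid lowest and NOD.scid highest. Kdelr2 fell by 0.61 with the transgene in NOD.scid (SE 0.113, limma adjusted p = 0.00549) and by 0.43 against BDC2.5/NOD (SE 0.113, limma adjusted p = 0.036). A second, dim Kdelr2 probe set gave -0.16 in the first of these, and the mean of both gave -0.38 (limma adjusted p = 0.0447). All 4 calls of Kdelr1 and Kdelr2 were lost without BDC2.5/NOD.scid replicate 2, the array of high actin control in that group, with limma adjusted p values up to 0.151 and 0.0521 for the transgene in NOD.scid and up to 0.142 and 0.268 against BDC2.5/NOD. The last 2 were also lost without either BDC2.5/NOD array, and that of Kdelr1 in NOD.scid without either BDC2.5/NOD array or NOD.scid replicate 1.

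Of the 7 COPI coat genes, 5 fell in BDC2.5/NOD.scid against BDC2.5/NOD, and all 7 had negative differences there at an unadjusted p under 0.05. Copz1, a zeta subunit, read 6.95 and 6.85 in BDC2.5/NOD, 6.61 and 6.64 in NOD, 6.78 and 6.52 in NOD.scid, and 6.37 and 6.36 in BDC2.5/NOD.scid. The BDC2.5/NOD arrays were highest and the BDC2.5/NOD.scid arrays lowest, and Copz1 fell by 0.53 (SE 0.101, limma adjusted p = 0.00622). Without BDC2.5/NOD replicate 1 the limma adjusted p was 0.0921, and with the mean of its probe sets, of which the second is dim and gave 0.06, the difference was -0.24 (0.213). Copz2, the other zeta subunit, read 7.86 and 7.79 in BDC2.5/NOD, 7.79 and 7.65 in NOD, 7.71 and 7.52 in NOD.scid, and 7.35 and 7.40 in BDC2.5/NOD.scid. The BDC2.5/NOD.scid arrays lay below all others, and the fall was 0.45 (SE 0.094, limma adjusted p = 0.0111). Copa, the alpha subunit, read 7.54 and 7.55 in BDC2.5/NOD, 7.60 and 7.51 in NOD, 7.38 and 7.33 in NOD.scid, and 7.14 and 7.22 in BDC2.5/NOD.scid, and the BDC2.5/NOD.scid pair lay at the bottom, below NOD.scid; it fell by 0.36 (SE 0.084, limma adjusted p = 0.0187). Copb2 and Copg1 fell by 0.38 and 0.38 (limma adjusted p = 0.0299 and 0.029). Their second probe sets gave -0.76 (0.00104) and -0.25 (0.156). That of Copb2 also rose by 0.46 with the transgene in NOD (limma adjusted p = 0.0241) and had an interaction of -0.79 (0.0127). The brightest Copb2 probe set gave -0.09 and -0.03 there and did not pass. The falls of Copz2, Copa, Copb2 and Copg1 were each lost without either BDC2.5/NOD array, those of Copz2 and Copa also without BDC2.5/NOD.scid replicate 1 and those of Copb2 and Copg1 without its replicate 2, with a limma adjusted p of up to 0.268. Cope, the epsilon subunit, read 7.66 and 7.73 in BDC2.5/NOD, 7.60 and 7.83 in NOD, 7.82 and 8.0 in NOD.scid, and 7.44 and 7.34 in BDC2.5/NOD.scid. Both BDC2.5/NOD.scid arrays lay below the other 6, and it fell by 0.52 with the transgene in NOD.scid (SE 0.101, limma adjusted p = 0.00758), a call lost without BDC2.5/NOD.scid replicate 2 or NOD.scid replicate 2 (up to 0.0623). Copb1 passed in no comparison.

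The Arf GTPases had no common order of group means. All 6 had a negative difference in BDC2.5/NOD.scid against BDC2.5/NOD (median -0.17), as did 4548 of all 8251 genes. All 6 also had a negative interaction (median -0.22), as did 4852 of all genes. Arf1, Arf3, Arf4 and Arf5 each passed in some comparison, and the share of all probe sets that did so was not computed. Arf1, which recruits COPI, read 9.06 and 9.01 in BDC2.5/NOD, 9.13 and 9.35 in NOD, 9.15 and 9.13 in NOD.scid, and 8.76 and 8.71 in BDC2.5/NOD.scid. The BDC2.5/NOD.scid arrays lay below all others, and Arf1 fell by 0.40 with the transgene in NOD.scid (SE 0.0882, limma adjusted p = 0.0153). Arf4 read 7.38 and 7.42 in BDC2.5/NOD, 7.37 and 7.16 in NOD, 7.21 and 6.67 in NOD.scid, and 6.70 and 6.84 in BDC2.5/NOD.scid. The NOD.scid pair was widely spread and reached the lowest value, and Arf4 fell by 0.63 in BDC2.5/NOD.scid against BDC2.5/NOD (SE 0.146, limma adjusted p = 0.0183). Arf5 read 7.74 and 7.54 in BDC2.5/NOD, 7.11 and 7.20 in NOD, 7.58 and 7.71 in NOD.scid, and 7.60 and 7.29 in BDC2.5/NOD.scid. Both NOD arrays lay below the other 6, which overlapped. Arf5 rose by 0.48 with the transgene in NOD (SE 0.114, limma adjusted p = 0.0216) and by 0.49 in NOD.scid against NOD (SE 0.114, limma adjusted p = 0.0449). Arf3 read 6.41 and 6.34 in BDC2.5/NOD, 5.90 and 6.09 in NOD, 6.11 and 6.06 in NOD.scid, and 6.19 and 6.26 in BDC2.5/NOD.scid. The BDC2.5/NOD arrays were highest, and Arf3 rose by 0.38 with the transgene in NOD (SE 0.0947, limma adjusted p = 0.029), where its other probe sets gave 0.02 and 0.24 and did not pass, and the mean of all 3 gave 0.21 (limma adjusted p = 0.124). Every one of these calls was lost without 3 or more of the 8 arrays left out in turn: Arf1 without either NOD.scid array or BDC2.5/NOD.scid replicate 2 (up to 0.0838), Arf4 without any 1 of the 4 arrays compared (0.157), Arf5 without either array of NOD or BDC2.5/NOD (0.239) or, in NOD.scid against NOD, of NOD.scid as well (0.283), and Arf3 without either BDC2.5/NOD array or NOD replicate 1 (0.233). Arf2 and Arf6 passed in no comparison.

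Of the genes matched by their letters alone, Sec22b and Sec14l1 passed. Sec22b, the SNARE, read 6.27 and 6.33 in BDC2.5/NOD, 6.04 and 6.24 in NOD, 5.99 and 5.95 in NOD.scid, and 6.02 and 5.82 in BDC2.5/NOD.scid. BDC2.5/NOD was highest, NOD came next, and the scid groups overlapped. It fell by 0.38 in BDC2.5/NOD.scid against BDC2.5/NOD (SE 0.103, limma adjusted p = 0.0393), and a second probe set by 0.49 (limma adjusted p = 0.045). Sec14l1 read 5.39 and 5.47 in BDC2.5/NOD, 5.05 and 4.94 in NOD, 5.0 and 4.84 in NOD.scid, and 4.86 and 5.03 in BDC2.5/NOD.scid, BDC2.5/NOD again being highest. It rose by 0.44 with the transgene in NOD (SE 0.104, limma adjusted p = 0.0233) and fell by 0.48 in BDC2.5/NOD.scid against BDC2.5/NOD (SE 0.104, limma adjusted p = 0.0123), or by 0.30 as the mean of both its probe sets (limma adjusted p = 0.0423). The fall of Sec22b was lost without either BDC2.5/NOD array or BDC2.5/NOD.scid replicate 2 (up to 0.268), that of Sec14l1 without either BDC2.5/NOD array or BDC2.5/NOD.scid replicate 1 (0.144), and the rise of Sec14l1 without any 1 of the 4 arrays compared (0.187). Sec14l2 and Sec1 passed in no comparison.

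Genes that work beside the translocon and coats were read from lists of other pathway members. In BDC2.5/NOD.scid against BDC2.5/NOD, 12 of 19 ER chaperones and disulfide isomerases fell and 0 rose, with a median of -0.77; Creld2 fell by 1.85, Pdia4 fell by 1.68 and Hsp90b1 fell by 1.35 on the log2 scale. Of 17 genes of N-glycosylation at the translocon 8 fell (median -0.34), among them Dad1 by 0.76, Mogs by 0.68 and Rpn1 by 0.51; of 11 genes of ER-associated degradation 5 fell (median -0.44), among them Herpud1 by 0.96. Of 26 ER to Golgi helpers outside the coats 10 fell (median -0.33), among them the cargo receptor subunit Mcfd2 by 0.77 and the SRP receptor subunit Srprb by 0.59. Of 20 Golgi SNAREs and tethers 6 fell and 1 rose (median -0.16). Of 11 unfolded protein response sensors and factors 2 fell, Atf4 by 0.75 and Ddit3 by 0.38. Of 21 genes of clathrin and its adaptors 2 fell and 1 rose, and of 12 zymogen granule exocytosis genes 2 fell. For comparison, 5.35% of all probe sets fell and 2.99% rose; differences between the lists were not tested. Without BDC2.5/NOD replicate 1 or 2 the counts past the threshold lay lower for all of these lists, as they did over all probe sets: chaperones 11 and 8, N-glycosylation 4 and 2, degradation 4 and 3, helpers 3 and 4, SNAREs 1 and 2, clathrin 0 and 0, exocytosis 1 and 1, and response factors 1 and 1. Without BDC2.5/NOD.scid replicate 2 they were 4 for N-glycosylation, 4 for the helpers, 3 for the SNAREs, 1 for clathrin, 1 for exocytosis and 1 for the response factors; without its replicate 1 they were 4 for the SNAREs and 1 for the response factors.

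**Figure D4:**
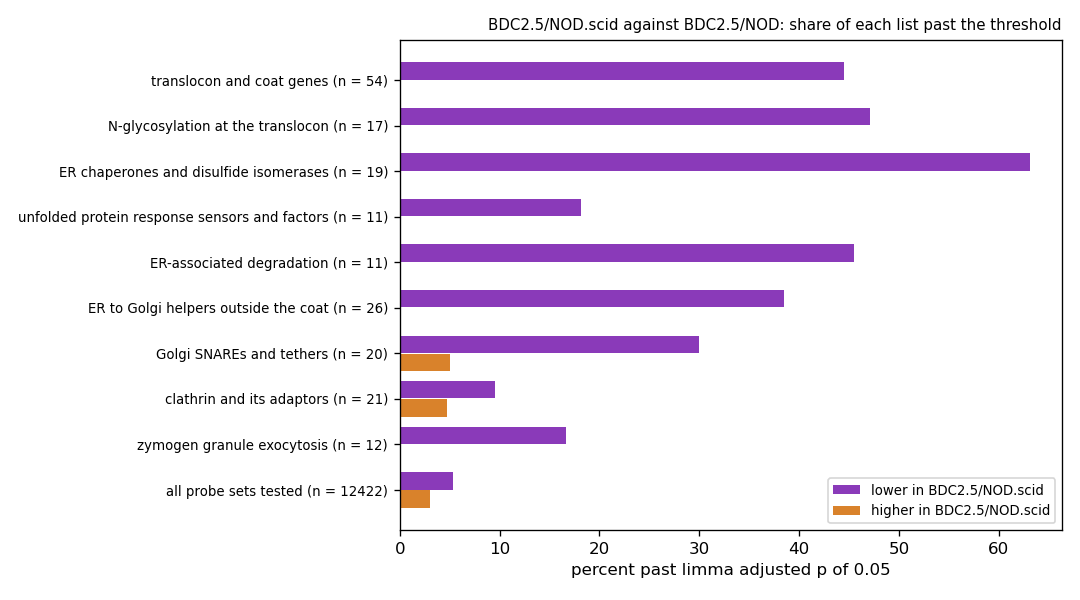
Percent of the genes of each list (y axis, with the number measured) past a limma adjusted p of 0.05 in BDC2.5/NOD.scid against BDC2.5/NOD (x axis), lower in purple and higher in orange; the bottom pair gives all probe sets tested. The translocon and coat genes reach 44.4% lower and 0 higher, against 5.35% and 2.99% of all probe sets.

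With the transgene in NOD, where 3.91% of all probe sets rose and 4.06% fell, 11 of the 19 chaperones rose and 0 fell (median 0.57), as did 4 of 26 helpers (Lman2 by 0.59, Mcfd2 by 0.57 and Gbf1 by 0.61), 3 of 20 SNAREs and tethers, 3 of 11 degradation genes, 2 of 12 exocytosis genes, 1 of 17 N-glycosylation genes (Mogs by 0.56) and 1 of 11 response factors (Atf4 by 0.44); of 21 clathrin genes 1 fell. With the transgene in NOD.scid 2.37% of all probe sets rose and 4.03% fell. Among chaperones 3 rose, Hspa5 by 0.81, Creld2 by 0.56 and Hsp90b1 by 0.55, and 2 fell, and Herpud1 rose by 0.98. Of the 17 N-glycosylation genes 5 fell and 0 rose, among them the oligosaccharyltransferase subunits Dad1 by 0.71, Ddost by 0.62 and Ostc by 0.48. These subunits sit at the Sec61 channel, whose genes Sec61a1 and Sec61b fell in the same comparison. Of the helpers 1 rose and 1 fell there, of the SNAREs 1 rose, of the exocytosis genes 1 fell, and of the clathrin genes and response factors 0 of 21 and 0 of 11 passed; at an unadjusted p under 0.05 limma gave 1 clathrin gene lower, and 2 response factors higher and 1 lower. In NOD.scid against NOD, where 1.61% of all probe sets fell and 0.741% rose, 2 chaperones (Hsp90b1 by 0.83 and Hspa5 by 0.59), 2 degradation genes (Herpud1 by 1.08 and Edem3 by 0.74), 2 helpers, 1 SNARE or tether and 1 response factor (Atf6 by 0.56) fell, and 0 genes of these lists rose. In these 3 comparisons each list with 1 gene called in a direction lay within 1 gene of the share of all probe sets. Of the N-glycosylation, clathrin and exocytosis genes 0 passed in NOD.scid against NOD. At an unadjusted p under 0.05 limma gave 1 higher and 2 lower, 1 higher and 3 lower, and 1 higher in that comparison.

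Markers of other cell types moved with some of these comparisons, and their part in the results was not tested. In whole pancreas, fewer cells of a type and less RNA per cell cannot be told apart. Of 9 macrophage markers 7 rose and 0 fell in BDC2.5/NOD.scid against BDC2.5/NOD, where their summed level was 9.59 to 9.74 against 8.67 to 8.68, and 7 rose with the transgene in NOD.scid, where NOD.scid had 8.64 to 8.77. Of 7 fibroblast markers 6 fell with the transgene in NOD and 5 in NOD.scid, and of 9 islet markers 5 and 6 fell; their summed levels were 9.31 to 9.35 in BDC2.5/NOD against 10.13 to 10.18 in NOD for fibroblasts, and 11.02 to 11.05 against 11.76 to 11.79 for islets. In BDC2.5/NOD.scid the sums were 9.67 to 9.68 for fibroblast markers, against 9.91 to 10.05 in NOD.scid, and 10.48 to 10.62 for islet markers, against 11.85 to 12.01. In BDC2.5/NOD.scid against BDC2.5/NOD, 1 islet marker fell, 1 fibroblast marker rose and 1 fell, 2 of 4 erythroid markers rose, and 1 of 8 B and plasma cell markers, Jchain, rose by 0.46. Of 6 duct markers Car2, a carbonic anhydrase that red cells also hold, passed in all 4 pairwise comparisons. It fell by 2.64 with the transgene in NOD.scid and by 0.47 in NOD, and rose by 2.63 in NOD.scid against NOD and by 0.46 in BDC2.5/NOD.scid against BDC2.5/NOD. Cftr rose by 0.45 with the transgene in NOD, and the other 4 duct markers passed in no comparison. Jchain also fell with the transgene in NOD, by 0.38. Erythroid markers also fell with the transgene, 4 of 4 in NOD.scid and 2 of 4 in NOD, and 4 of 4 rose in NOD.scid against NOD. Of 7 T cell markers 0 passed in any comparison; at an unadjusted p under 0.05 limma gave 2 higher with the transgene in NOD.scid, 1 lower in NOD.scid against NOD, 1 positive in the interaction and 0 in the others. The secretory machinery is expressed in every cell type.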

How the data were processed

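The authors deposited 1 table of log2 values, with 12488 Affymetrix probe sets for each of 8 arrays of mouse pancreas RNA. Per the labels' protocols, RNA came from guanidine extraction and about 10 ug was labelled by the maker's procedure. The log2 base was inferred from the deposited values; how they were normalized, and how probes were summarised, no source used here gives. Values were used as deposited, since array medians lay within 4.24 to 4.30. Leaving out 66 control probe sets, 12422 were tested.

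The 4 group means were fitted to all 8 arrays together with limma 3.58.1 (R 4.3.3), with a variance trend, 4 residual degrees of freedom and a prior of 8.07. Its p-values, for changes in either direction, were Benjamini-Hochberg adjusted over all 12422 probe sets, and an adjusted p under 0.05 was called. The code was tested on simulated data. The number of arrays limits precision. The platform annotation gave 1 symbol to 10833 probe sets, several to 396 and none to 1193; the 54 genes all matched RefSeq, with 0 symbols changed.

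Genes past the threshold in a pairwise comparison are given on every array, up to 4 a role by smallest p, with the gene of smallest p where a role had none, and up to 3 genes for each pathway list and comparison. The genes, pathway lists and marker lists were chosen with earlier results of these data known. Title numbers were not used to pair the arrays in the main fit. Deviations of the first replicates from their group means correlated at -0.32 to 0.29, with no common sign. The values were 0.287 for NOD.scid with NOD, -0.322 for BDC2.5/NOD.scid with NOD and -0.192 for BDC2.5/NOD.scid with NOD.scid. The array of high actin control is replicate 1 in NOD and NOD.scid and replicate 2 in BDC2.5/NOD.scid. Its part in these values was not tested. A total of 23 alternative fits were tried, and the closing section gives those that moved a count; applying them to the pathway lists was chosen after seeing the data. Tables used pandas 2.3.3 and plots matplotlib 3.10.9.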

Additional observations from a re-analysis of the deposited data

Results flagged for a closer look

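For 8 of the 54 genes the transgene difference in NOD.scid differed from that in NOD by the interaction test. The interaction was -1.34 for Ssr1, -1.01 for Kdelr3, -0.87 for Sec61a1, -0.77 for Ssr2, -0.73 for Sec61b, -0.68 for Arf5, -0.66 for Kdelr2 and -0.56 for Copz1, all on the log2 scale, with limma adjusted p values from 0.000861 for Ssr1 to 0.0456 for Copz1. Sec61b was lost without either BDC2.5/NOD array, and Arf5, Kdelr2 and Copz1 were lost without 6, 7 and 7 of the 8 arrays left out in turn, with limma adjusted p values up to 0.188, 0.175 and 0.22. With the transgene, Ssr1, Kdelr3 and Arf5 rose in NOD, Sec61b and Kdelr2 fell in NOD.scid, Sec61a1 did both, and Ssr2 fell in both, more in NOD.scid. Copz1 passed in neither, with a difference of 0.27 in NOD (limma adjusted p = 0.123) and -0.29 in NOD.scid (limma adjusted p = 0.141). Second probe sets gave interactions of -0.61 for Ssr1 and -1.02 for Sec61a1 (limma adjusted p = 0.0682 and 0.0162). Dim second probe sets gave -0.095 for Kdelr2 and 0.014 for Copz1.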

How the results depend on the processing

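The count of called genes fell or rose by over 1.5 times as follows. Counting the BDC2.5/NOD arrays as 1 sample gave 1 gene for the transgene in NOD (main count 10), 2 for scid without the transgene (4), 9 for scid with it (24) and 4 for the interaction (8). A threshold of 0.01 gave 3, 0, 11 and 5 genes. A term for the actin control gave 17 for the transgene in NOD, 11 for scid without the transgene and 18 for the interaction, and leaving out the arrays of high actin control gave 19, 14 and 15. The latter fit leaves 1 array in each group but BDC2.5/NOD, so all its spread comes from that pair, and calls over all probe sets rose too, from 990 to 2179, 292 to 1489 and 586 to 1621; these counts are no evidence of more changed genes. Values floored at 4 gave 2 for scid without the transgene and 5 for the interaction. For scid without the transgene, fitting with no variance trend gave 2, array weights gave 2 and fitting only the groups compared gave 1. With each array left out in turn, counts ran from 4 to 12 for the transgene in NOD.scid (9), 1 to 11 for the transgene in NOD, 0 to 4 for scid without the transgene, 9 to 26 for scid with it and 4 to 10 for the interaction. In the refits with the lowest of these counts the calls over all probe sets fell too. The cause was not tested.

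With the replicate block (title number) the counts were 8 for the transgene in NOD.scid and 8 for it in NOD. They were 2 and 19 for scid without and with it, and 5 for the interaction. Over all probe sets the calls were then 647, 762, 195, 826 and 411. The shared number is only a label. In BDC2.5/NOD.scid against BDC2.5/NOD, quantile normalization gave 1 gene higher and 19 lower. For the 28 genes given on every array, each in its comparison of smallest p only, the 23 alternatives gave 644 values, of which 0 reversed, 91 lost the call and 2, both of Sec11a, gained one. The median of all probe sets moved by under 0.1 under every scaling. The deposited values carry no detection calls, so dim genes may understate differences.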

Other observations

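In NOD.scid against NOD, without the transgene, 33 of the 54 genes had a negative difference and 21 a positive one, with a median of -0.10 against 0.03 over all 8251 genes; 4 passed. Nearest the threshold among the others were Sar1a (-0.36), Copb2 (-0.345), Sec23ip (-0.35), Sec11a (-0.38), Srpr (-0.30) and Sec61a1 (0.27), with limma adjusted p values of 0.0579, 0.0955, 0.111, 0.112, 0.122 and 0.129. The group mean of NOD lay above that of NOD.scid in all of these 6 but Sec61a1, and the genes were singled out after their values were seen.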
